A study of Sus scrofa with 21 samples.

Results

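The infarct core (IC), the middle of the left ventricular scar, was compared between 4 weeks and 1 week post-MI on 6 of the 21 Affymetrix porcine arrays of the series, 1 array per pig. All 6 samples came from female Landrace x Large White pigs in which a marginal branch of the circumflex coronary artery had been ligated permanently. Pigs 7, 8 and 9 gave the IC samples at 1 week, which the labels also give as 6 days, and pigs 18, 20 and 22 gave those at 4 weeks, also given as 30 days. Different animals were sampled at each stage, so no pig was followed over time, and each scar is represented by 1 biopsy. The remote myocardium (RM), taken from the non-infarcted septum of the same 6 pigs, was used to see whether a change was shared by the whole heart. The IC arrays at 6 weeks (pigs 2, 3 and 5, given as 45 days) and the 3 arrays of control myocardium (CM, pigs 30, 31 and 33, sham-operated per the labels and healthy per the methods) serve as reference levels.

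An infarct heals in overlapping phases. Dead myocardium is first cleared by neutrophils and macrophages, and fibroblasts, endothelial cells and leukocytes then divide and fill the defect with granulation tissue. Later most inflammatory cells leave or die, fibroblasts stop dividing, and the collagen matrix is cross-linked and enriched in elastic fibres and proteoglycans until a firm scar remains. The comparison of 4 weeks with 1 week asks which transcripts of the core differ between the earlier and the later of these phases. In a biopsy, fewer cells of a type and less RNA per cell cannot be told apart, and this holds for every gene below.

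The 3 arrays of 1 week resembled each other more than those of 4 weeks, and for 4 weeks the lowest correlation within the stage lay inside the range between the stages. Pearson correlations over the 12180 probe sets tested were 0.972 to 0.981 within IC at 1 week, 0.943 to 0.976 within IC at 4 weeks and 0.925 to 0.957 between them. The label was borne out by cell markers, with a mean level of 10 fibroblast genes of 8.17 to 8.59 (log2 RMA) in the 6 IC arrays against 6.33 to 6.62 in the RM arrays of the same pigs, and a mean of 20 cardiomyocyte sarcomere genes of 9.26 to 10.51 against 10.84 to 11.11. Pig 22 stood apart among the 4-week cores. Its macrophage list mean was 7.39, where pigs 18 and 20 had 6.19 and 6.27, its sarcomere mean was 9.26 against 10.51 and 10.39, and its endothelial mean was 5.96 against 5.24 and 5.17.

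Control probe sets also moved with the stage. Probe sets at the 5′ end of actin, EF1A and GAPDH mRNA lay closer to those at the 3′ end in the 4-week cores (mean log2 difference of -1.67 to -1.48) than in the 1-week cores (-2.51 to -2.23), and RM of the same pigs differed likewise (-1.57 to -1.29 against -2.27 to -1.92). The added poly-A controls, which report labelling, averaged 4.65 to 5.16 in the 4-week cores and 3.02 to 4.38 in the 1-week cores, and 32 of the 34 tested were called higher at 4 weeks. Stage and any difference in RNA handling or labelling cannot be told apart for these arrays.

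PCOLCE2, SCARA5 and PROCR were among the genes with the largest rises between 1 and 4 weeks, and CXCR4, CCL5 and LCP1 were among those with the largest falls. In all, 1452 of 12180 probe sets were differentially expressed (DEPS, adjusted p under 0.05 in limma), of which 679 (5.57% of those tested) were higher at 4 weeks and 773 (6.35%) were lower. These counts include 42 Affymetrix control probe sets, among them the 32 poly-A controls and 6 of 27 hybridization controls that were called higher. Their median absolute log2 FC was 0.8, and 427 reached an absolute log2 FC of 1, 276 of them higher and 151 lower. Both directions included, in 1390 DEPS the 3 arrays of one stage lay beyond the 3 of the other. A small adjusted p favours such separation, and its share over all probe sets tested is not given here, so the count is no added support. Counted once per gene by the platform's annotation, 192 of 4977 genes (3.86%) were higher and 360 (7.23%) lower, and the median log2 FC of these genes was -0.08. These shares over all genes are the background for every gene list below. In RM the same interval gave 194 DEPS (1.59%), 113 higher and 81 lower. The mean of 447 of the 773 lower DEPS (57.8%) was nearer to that of CM at 4 weeks than at 1 week, as was that of 242 of the 679 higher DEPS (35.6%), beside 48.6% of all probe sets tested.

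**Figure D1:**
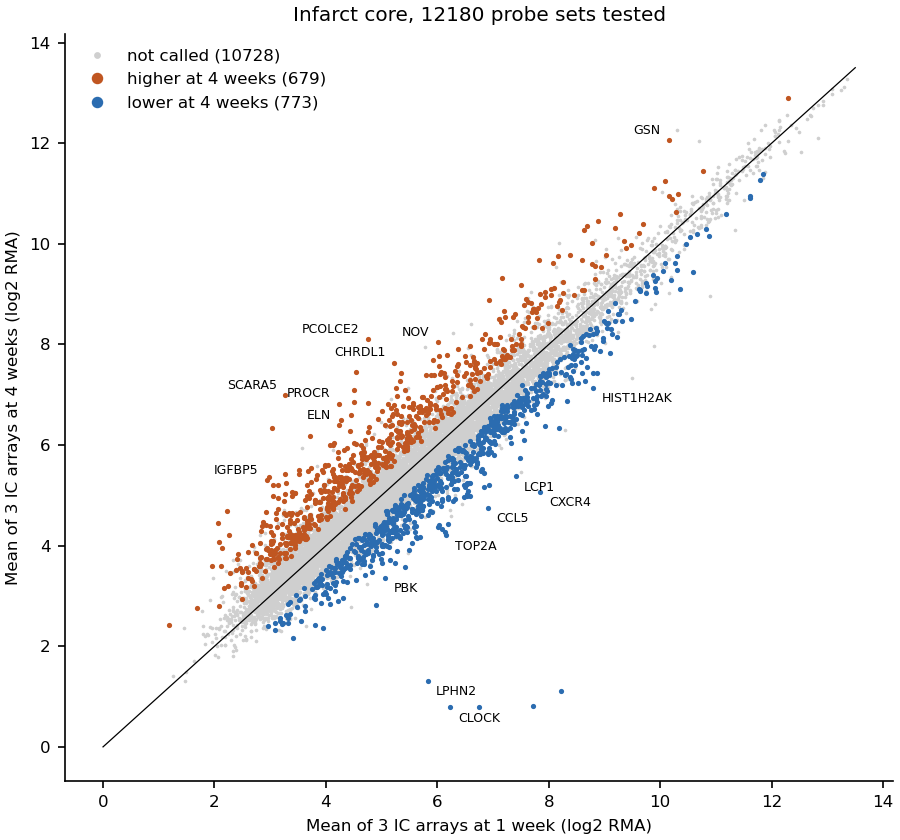
Mean level of each of 12180 probe sets in the 3 IC arrays at 1 week (x axis) and at 4 weeks (y axis), in log2 RMA, with the line of equal level. The 679 probe sets called higher (orange) and the 773 called lower (blue) lie on both sides along the whole range of levels, and 5 probe sets at the bottom, CLOCK and LPHN2 among them, fell to near 1.

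The list depended on single arrays. It held 538 DEPS without pig 9, 722 without pig 18 and 875 without pig 7, and 1047 to 1481 without any of the other 3. Of 25 called genes with further probe sets 18 had one that did not pass, and in 5 (ACTB, TIMP2, CTNNB1, CTSC and IDH3A) one had the opposite sign. Of the 118 called genes that are named here or counted among them, 44 were called in every fit without 1 array. With the arrays centred on ribosomal protein genes, which lowers the median log2 FC of all probe sets by 0.126, 430 were higher and 1273 lower. With the poly-A control level as a covariate 45 DEPS were called, and with the difference of the 5′ and 3′ controls none were called (1252 at an unadjusted p under 0.05).

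CXCR4, the receptor that draws leukocytes towards CXCL12, had levels of 8.24, 7.60 and 7.70 in the cores of pigs 7, 8 and 9 at 1 week and of 5.22, 4.90 and 5.10 in those of pigs 18, 20 and 22 at 4 weeks. It fell by 2.78 (log2 FC, standard error [SE] 0.38, n = 3 per stage, adjusted p = 0.00038), and its 4-week arrays lay just above the CM range of 3.11 to 4.70. Its ligand CXCL12 went the other way, from 6.12, 6.49 and 6.31 to 7.50, 7.32 and 7.56 (log2 FC 1.15, adjusted p = 0.00486), while CM had 3.86 to 4.15. CCL5, a chemokine made mainly by T and natural killer cells, had 7.06, 6.68 and 6.97 at 1 week and 4.71, 4.20 and 5.36 at 4 weeks (log2 FC -2.15, adjusted p = 0.00118). The groups did not overlap for any of these 3 genes, which the choice of CXCR4 and CCL5 among the largest falls required. In RM neither CXCR4 (log2 FC -0.42, adjusted p = 0.595) nor CCL5 (-0.11, adjusted p = 0.909) passed. The limma test of the difference between IC and RM, with the pig as a block, passed for neither. It gave -2.36 (adjusted p = 0.0884) for CXCR4 and -2.04 (adjusted p = 0.21) for CCL5.

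Of 19 chemokine, cytokine and receptor genes tested 2 rose and 2 fell (10.5% each way, beside 3.86% and 7.23% of all genes), with a median of -0.26. Among the largest falls were 3 further genes that leukocytes express. IL2RB, a chain of the interleukin-2 receptor, had 6.58, 5.71 and 6.30 at 1 week and 4.27, 4.38 and 4.65 at 4 weeks, beside 3.61 to 4.38 in CM. PTPRCAP, which binds the leukocyte phosphatase CD45, went from 5.57, 4.59 and 5.56 to 3.30, 3.63 and 4.01. SASH3, an adaptor of lymphocytes, went from 6.23, 5.89 and 6.31 to 3.59, 4.12 and 5.09. These 3 fell by 1.77, 1.59 and 1.87 on the log2 scale, and each was called in every fit without 1 array. GNLY, the granulysin of cytotoxic cells, fell by 1.27 (adjusted p = 0.0374), a call lost without pig 8, 9, 18 or 20 (adjusted p up to 0.188, without pig 9), and JCHAIN, the other of the 2 T, B and natural killer cell genes tested, had -0.78 (adjusted p = 0.543). MS4A2, a chain of the IgE receptor of mast cells, was higher at 4 weeks (1.19, adjusted p = 0.0476, and up to 0.179 without 1 array), the only tested member of the neutrophil and mast cell list.

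Of 21 macrophage and phagocyte genes tested, 5 fell and none rose, a share of 23.8% beside 7.23% of all genes, and the median log2 FC of the list was -0.40 (0.13 in RM). TYROBP, a signalling adaptor of myeloid cells, had 8.25, 8.92 and 8.77 at 1 week and 6.98, 7.00 and 7.85 at 4 weeks (log2 FC -1.37, adjusted p = 0.00479). SPI1, the transcription factor PU.1 that specifies myeloid cells, had 5.45, 5.63 and 5.57 against 4.43, 4.54 and 5.01 (-0.89, adjusted p = 0.00675). CTSS, a protease of antigen presenting cells, ITGB2, the common integrin chain of leukocytes, and NCF1, a subunit of the phagocyte oxidase, fell by 1.15, 1.15 and 1.01. The stages overlapped for ITGB2, and the calls of these 3 were lost without pig 18. Further probe sets of CTSS did not pass (-0.74 and -0.56). In all of these 5 genes pig 22 had the highest of the 4-week levels. The number of macrophage genes called lower was 2 without pig 18 and 9 without pig 22, and the mean of the list in pig 22 (7.39) exceeded that of each 1-week core (6.96 to 7.07). Of 23 lysosome and lipid handling genes 3 fell, namely CTSC (-0.93), CTSZ (-0.90) and SCARB1 (-0.78), and of 20 antigen presentation genes 1 fell (5.0%), TAPBP (-0.75), all 4 with adjusted p above 0.05 without pig 9.

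Of 33 genes of the actin cytoskeleton and cell motility 12 fell (36.4%, beside 7.23% of all genes) and 1 rose. The median log2 FC was -0.43 in IC and -0.07 in RM, and the count of falls was 7 to 12 without 1 array (7 without pig 18). LCP1, the L-plastin that bundles actin in leukocytes, had 7.22, 7.47 and 7.52 at 1 week and 4.89, 5.51 and 5.72 at 4 weeks (log2 FC -2.03, SE 0.27, adjusted p = 0.00033), and CM had 3.30 to 3.35. CORO1A, the coronin of leukocytes, had 6.95, 6.76 and 7.08 against 4.79, 4.86 and 5.98 (-1.72, adjusted p = 0.00641), although a second probe set of it did not pass (-0.08). Among the other members that fell were RDX (-0.94), FSCN1 (-0.91), the ARP2/3 complex genes ACTR3 (-0.90), ARPC5 (-0.70), ACTR2 (-0.63) and ARPC4 (-0.55), the tubulin TUBB (-0.85) and CFL1 (-0.69). The probe sets of ACTB disagreed, with -1.25 for the brighter one and 1.69 (adjusted p = 3.49e-05) for the other. The direction of ACTB, counted among the 12 that fell, is therefore not clear. GSN, the gelsolin that severs actin filaments, was the member that rose, from 10.14, 9.87 and 10.48 to 12.14, 12.34 and 11.72 (1.90, adjusted p = 0.000505), and its second probe set also rose (1.25).

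**Figure D2:**
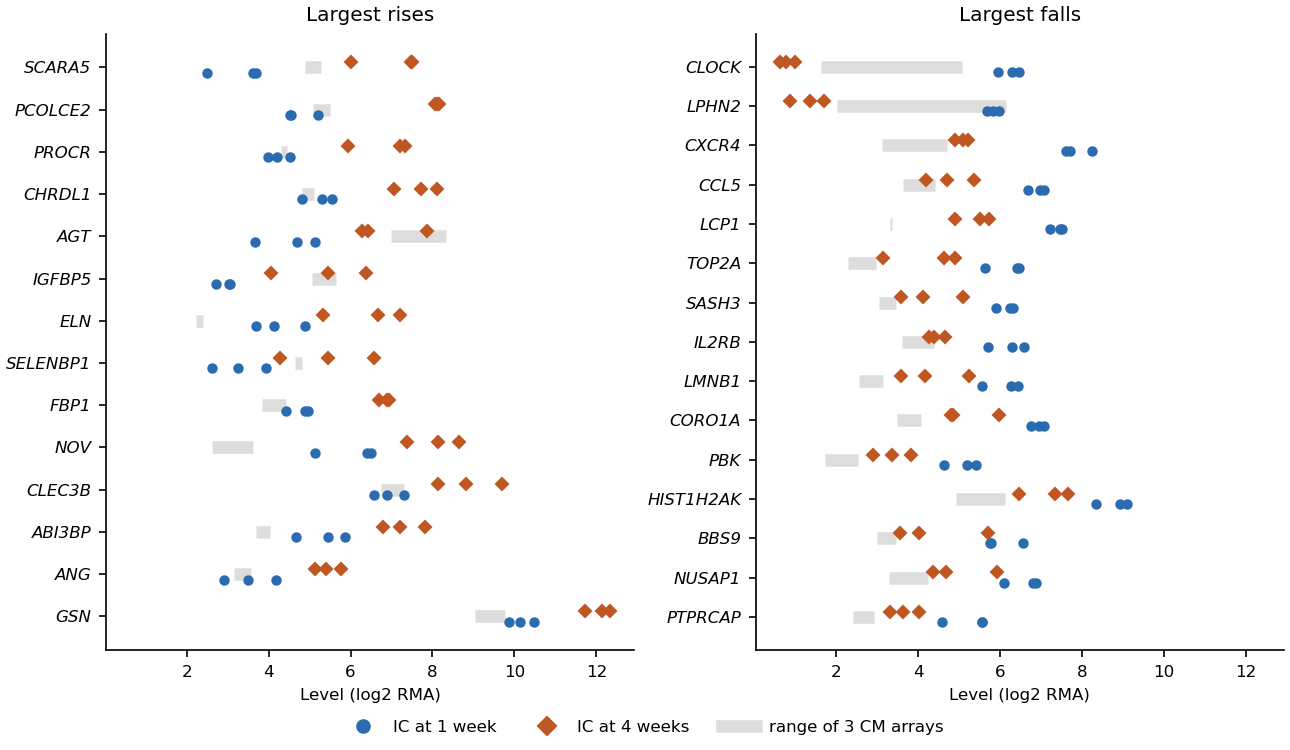
Level (log2 RMA, x axis) of the named genes with the largest rises (left) and the largest falls (right) in the 3 IC arrays at 1 week (blue circles) and at 4 weeks (orange diamonds), with the range of the 3 CM arrays as a grey bar. The genes were taken among those whose stages did not overlap, and in the falling genes other than CLOCK and LPHN2 the 4-week levels lay between those of 1 week and CM or within the CM range.

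Several genes of cell division were among the largest falls. TOP2A, the topoisomerase of dividing cells, had 6.45, 5.62 and 6.41 at 1 week and 3.13, 4.90 and 4.62 at 4 weeks (log2 FC -1.95, SE 0.48, adjusted p = 0.014), and CM had 2.28 to 2.96. PBK, a mitotic kinase, had 5.18, 4.62 and 5.41 against 2.89, 3.83 and 3.37 (-1.71, adjusted p = 0.00775). NUSAP1 of the mitotic spindle (-1.60, with a second probe set at -0.58 that did not pass), UBE2C, which marks mitotic proteins for destruction (-1.52), CKS2 (-1.40), AURKB (-0.82) and MAD2L1 (-0.81) fell as well. LMNB1, the lamin of the nuclear envelope, had 6.43, 5.57 and 6.26 against 3.58, 4.16 and 5.24 (-1.76, adjusted p = 0.0041), and the histone gene HIST1H2AK had 8.93, 8.34 and 9.11 against 6.45, 7.33 and 7.65 (-1.66, adjusted p = 0.00968). In each gene whose levels are given here all 3 arrays of 1 week were above all 3 of 4 weeks, as the rule that chose the largest falls required.

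Of 15 cell cycle genes tested 6 fell (40.0%) and none rose, with a median log2 FC of -0.81 in IC and 0.15 in RM. Of 12 DNA replication and repair genes 5 fell (41.7%), with a median of -0.34 in IC and 0.09 in RM. They were FEN1 (-1.18, adjusted p = 0.00237), H2AFZ (-1.18), the replication clamp PCNA (-1.03), HMGB2 (-0.86) and RRM1 (-0.48). The mean level of the cell cycle list was 6.08, 5.46 and 6.05 in pigs 7, 8 and 9, 4.92, 5.26 and 5.22 in pigs 18, 20 and 22, and 4.59 to 4.79 in CM. Pig 8 thus had the lowest of the 1-week means, still above each 4-week core. The calls were fragile, with 0 of the 15 cell cycle genes called without pig 9 and 8 at most in any fit without 1 array, and TOP2A had an adjusted p of 0.0775 without pig 18. FEN1, PBK and LMNB1 were called in every such fit. None of the 10 cell cycle inhibitors tested passed.

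**Figure D3:**
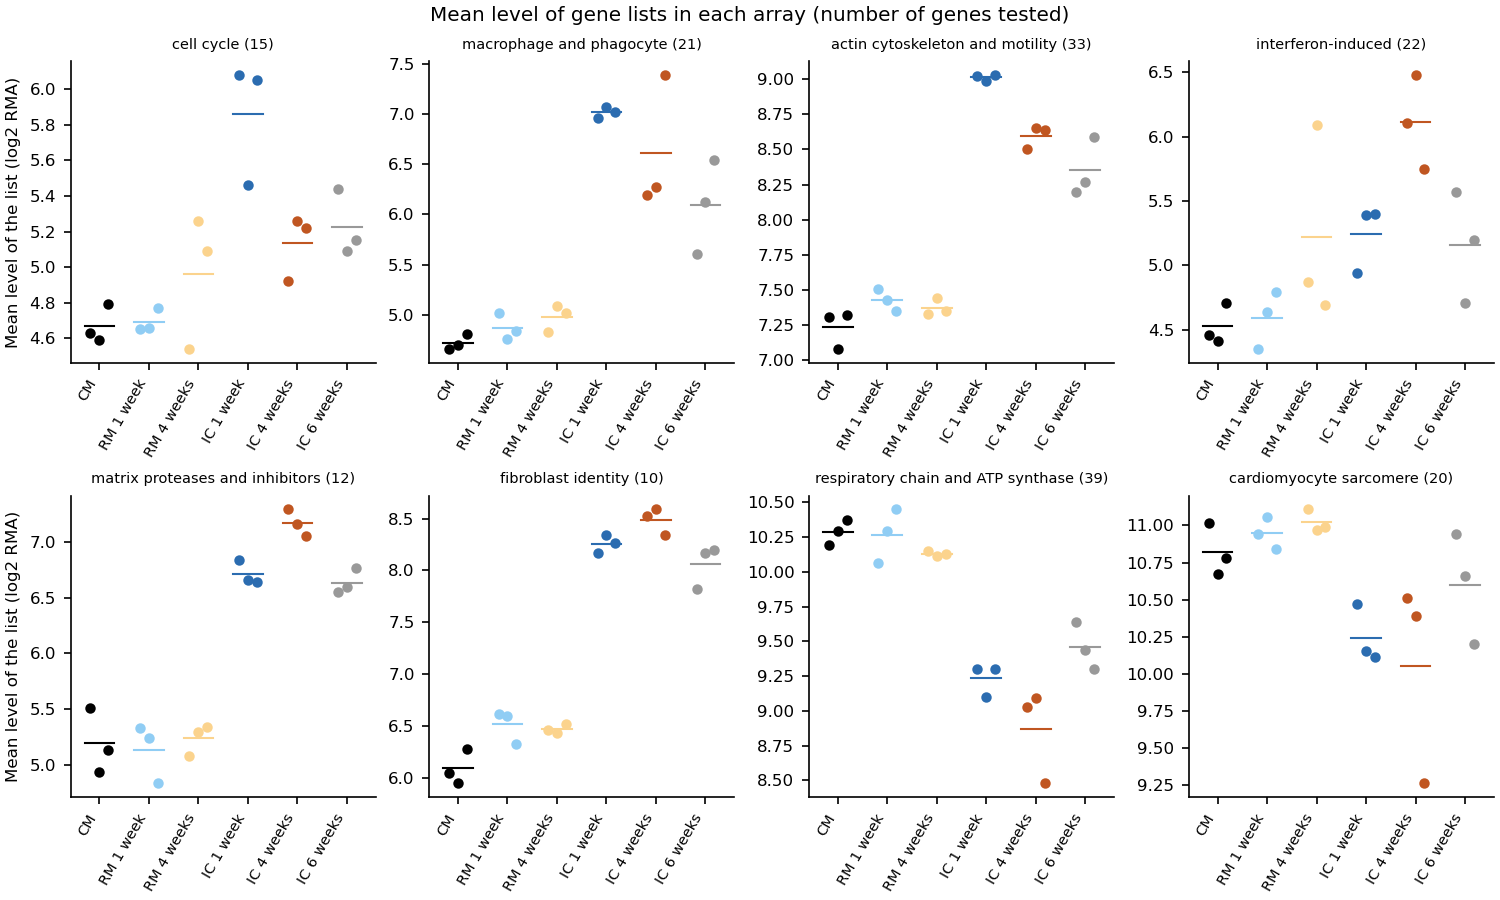
Mean level (log2 RMA, y axis) of 8 gene lists in each array, with a line at the mean of the 3 arrays of a group and the number of genes tested in brackets. The cell cycle and actin lists were lower in all 3 IC arrays at 4 weeks than in all 3 at 1 week, the interferon-induced and matrix protease lists were higher in all 3, and pig 22 (the right point of IC at 4 weeks) stood apart in the macrophage, respiratory and sarcomere lists.

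Several matrix genes were among the largest rises, while most members of the matrix lists did not pass. PCOLCE2, which enhances the trimming of procollagen into fibre-forming collagen, had 4.54, 4.53 and 5.21 at 1 week and 8.11, 8.15 and 8.07 at 4 weeks (log2 FC 3.35, SE 0.32, adjusted p = 3.49e-05), with 5.09 to 5.50 in CM. It also rose in RM (1.40, adjusted p = 0.0333), and the test of the difference between IC and RM did not pass (1.95, adjusted p = 0.189). ELN, the elastin of elastic fibres, had 4.14, 4.88 and 3.69 against 6.66, 7.22 and 5.32 (2.16, adjusted p = 0.00539), with 2.23 to 2.39 in CM. MFAP5, a protein of the microfibrils on which elastin is laid down, had 8.64, 9.05 and 8.21 against 10.16, 10.42 and 10.23 (1.64, adjusted p = 0.00287). ABI3BP, a matrix protein that binds collagen, rose from 5.87, 5.45 and 4.66 to 7.20, 7.81 and 6.80 (1.94, adjusted p = 0.0034). For these 4 genes the stages did not overlap, which the choice among the largest rises required of all but MFAP5. The calls of these 4 genes held in every fit without 1 array.

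Of 18 matrix glycoprotein and matricellular genes tested 4 rose (22.2%, beside 3.86% of all genes) and 1 fell, and the median of the list was 0.02. Beside MFAP5 these were TNXB, a tenascin of collagen fibrils (1.74), FBLN1, a fibulin of elastic fibres and basement membranes (1.16), and the laminin chain LAMC1 (0.60), while the basement membrane protein NID2 fell (-0.91). NID2 had -0.79 in RM (adjusted p = 0.116). The calls of TNXB, FBLN1, LAMC1 and NID2 were each lost without pig 18 (and those of all but TNXB without other pigs too), with adjusted p of at most 0.136 over the fits without 1 array. Of 9 proteoglycan genes 2 rose (22.2%), PRELP (1.13) and SDC2 (1.17), and neither was called without pig 9, 7 or 18. Further probe sets of SDC2 gave 1.09 (adjusted p = 0.0344) and 0.16 (adjusted p = 0.794). The stages overlapped for PRELP. Of 4 fibrillar collagen genes 1 rose (25.0%), COL1A2, from 5.44, 5.30 and 5.27 to 6.20, 6.17 and 6.46 (0.94, adjusted p = 0.0107). COL3A1 (0.48), COL5A3 (0.44) and COL5A1 (-0.05) did not pass, and a second probe set of COL1A2 gave 0.31. None of 5 other collagen genes passed, with log2 FC of -0.25 to 0.49. Of 11 collagen modification genes PCOLCE2 alone did (9.09%), with a list median of -0.24 and 7 of the 11 below 0.

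Of 12 genes of matrix proteases and their inhibitors tested 3 rose (25.0%), the inhibitors TIMP3 and TIMP2 and the protease CTSK, and none fell, with a median of 0.38 in IC and 0.05 in RM. TIMP3, a metalloproteinase inhibitor held in the matrix, had 3.30, 4.10 and 3.14 at 1 week and 6.47, 4.61 and 5.43 at 4 weeks (1.99, adjusted p = 0.00575), and its second probe set rose by 1.56. In RM TIMP3 changed by 1.02 (adjusted p = 0.196). The test of the difference between IC and RM did not pass for TIMP3 (0.98, adjusted p = 0.639). TIMP2 had 7.68, 8.17 and 7.69 against 8.96, 9.20 and 8.86 (1.16, adjusted p = 0.0041), with a second probe set at -0.29 that did not pass. CTSK, a protease that cleaves collagen, had 7.74, 7.70 and 7.45 against 8.51, 9.01 and 9.01 (1.22, adjusted p = 0.00117). The count was 3 or 4 in every fit without 1 array.

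CHRDL1, an antagonist of bone morphogenetic proteins, had 4.82, 5.55 and 5.31 at 1 week and 7.73, 7.06 and 8.11 at 4 weeks (log2 FC 2.41, SE 0.27, adjusted p = 8.44e-05). NOV, the matricellular protein CCN3, had 6.41, 6.49 and 5.13 against 8.14, 8.65 and 7.37 (2.04, adjusted p = 0.00515), with 2.61 to 3.61 in CM. IGFBP5, which binds insulin-like growth factors, had 2.72, 3.05 and 3.04 against 5.46, 4.06 and 6.37 (2.36, adjusted p = 0.00857), and its 4-week range held the CM range of 5.05 to 5.65. Its 1-week levels were low, where the size of a change is not exact, and it changed by 1.16 in RM (adjusted p = 0.243). IGFBP6 rose from 5.91, 6.63 and 5.96 to 8.15, 8.05 and 7.16 (1.62, adjusted p = 0.00118), and its second probe set by 1.47. IGFBP5, IGFBP6 and the receptor EGFR (0.81) were the 3 of 15 growth factor genes that rose (20.0%), and none fell.

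Of 17 TGF-beta and BMP genes 1 rose, BMP4 (0.90, adjusted p = 0.0235), and 1 fell, SMAD4 (-0.62, adjusted p = 0.027). The shares were 5.88% each way, beside 3.86% and 7.23% of all genes, and without pig 9 neither gene was called. Of 9 Wnt genes the co-receptor LRP6 (0.93, with 2 further probe sets at 0.78 and 0.83) and CTNNB1 (0.50) rose (22.2%). CTNNB1 had 4 further probe sets between -0.25 and 0.09 that did not pass, and without pig 22 neither gene was called. LRP6 had 0.82 in RM (adjusted p = 0.0933). AGT, the angiotensinogen, had 3.66, 4.70 and 5.13 at 1 week and 6.28, 6.43 and 7.87 at 4 weeks (2.36, adjusted p = 0.0247, and 0.101 without pig 7), below or within the CM range of 7.00 to 8.34, and the angiotensin receptor AGTR1 rose by 0.90 (adjusted p = 0.0489, and 0.174 without pig 22). In RM AGT changed by 0.09 (adjusted p = 0.962) and AGTR1 by 0.81 (adjusted p = 0.145). AGT and AGTR1 were the 2 of 11 fetal programme and wall stress genes that passed (18.2%). Of the 11 genes 5 had a negative log2 FC.

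SCARA5, a scavenger receptor that takes up ferritin, had the largest rise of all named genes. Its levels were 2.49, 3.63 and 3.69 at 1 week and 7.49, 6.01 and 7.47 at 4 weeks (log2 FC 3.72, SE 0.48, adjusted p = 0.000277), so it passed from below the CM range of 4.88 to 5.28 to above it. The 1-week levels were low, where the size of a change is not exact. In RM SCARA5 changed by 1.12 (adjusted p = 0.209), and the test of the difference between IC and RM did not pass (2.60, adjusted p = 0.0884). SELENBP1 also lay below CM (4.64 to 4.82) at 1 week, with 2.62, 3.25 and 3.94, and had 5.44, 4.27 and 6.57 at 4 weeks (2.16, adjusted p = 0.00641). These 1-week levels were low as well, and SELENBP1 changed by 0.83 in RM (adjusted p = 0.339). PROCR, the receptor of protein C, rose from 4.51, 3.99 and 4.20 to 7.20, 7.32 and 5.95 (2.59, adjusted p = 0.00112). In RM PROCR changed by 1.37 (adjusted p = 0.0933), and the test of the difference did not pass (1.23, adjusted p = 0.357). FBP1, an enzyme of gluconeogenesis, rose from 4.42, 4.96 and 4.90 to 6.88, 6.94 and 6.69 (2.07, adjusted p = 0.000347), with -0.08 (adjusted p = 0.917) in RM. The test of the difference between IC and RM did not pass for FBP1 (2.15, adjusted p = 0.118). CLEC3B, the plasminogen-binding tetranectin, and ANG, the ribonuclease angiogenin, rose by 1.96 and 1.91.

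Of 13 complement genes with a platform symbol 2 rose (15.4%) and none fell, the protease C1R (1.23, adjusted p = 0.0175) and the regulator CD46 (0.49, adjusted p = 0.026), and the median was 0.49 in IC and 0.03 in RM. Both calls were lost without pig 8, 18 or 22.

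Of 22 interferon-induced genes tested 5 rose (22.7%), none fell and 20 had a positive log2 FC, with a median of 0.75. USP18, which dampens interferon signalling, had 3.23, 3.80 and 4.16 at 1 week and 5.50, 6.35 and 4.78 at 4 weeks (1.81, adjusted p = 0.0349). XAF1 (1.57), IFIT1 (1.39, with further probe sets at 0.43 and 0.45 that did not pass), IFIT3 (1.39) and IFI44L (0.81) rose likewise, and the cytokine gene TNFSF10, which interferon also induces, rose by 1.80 (adjusted p = 0.0381, and 0.129 without pig 18). Pig 20 had the highest level of all 5 list members, and the mean of the list was 6.48 in its core and 6.09 in its RM, beside 6.11 and 4.87 in pig 18, and 5.75 and 4.69 in pig 22. The 1-week cores had 4.94 to 5.40, the 1-week RM 4.35 to 4.79 and CM 4.41 to 4.71. None of the list was called without pig 7, 9, 18 or 20, while up to 7 were in other fits without 1 array. The median in RM was 0.55. TNFSF10 had 1.85 in RM (adjusted p = 0.0864).

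**Figure D4:**
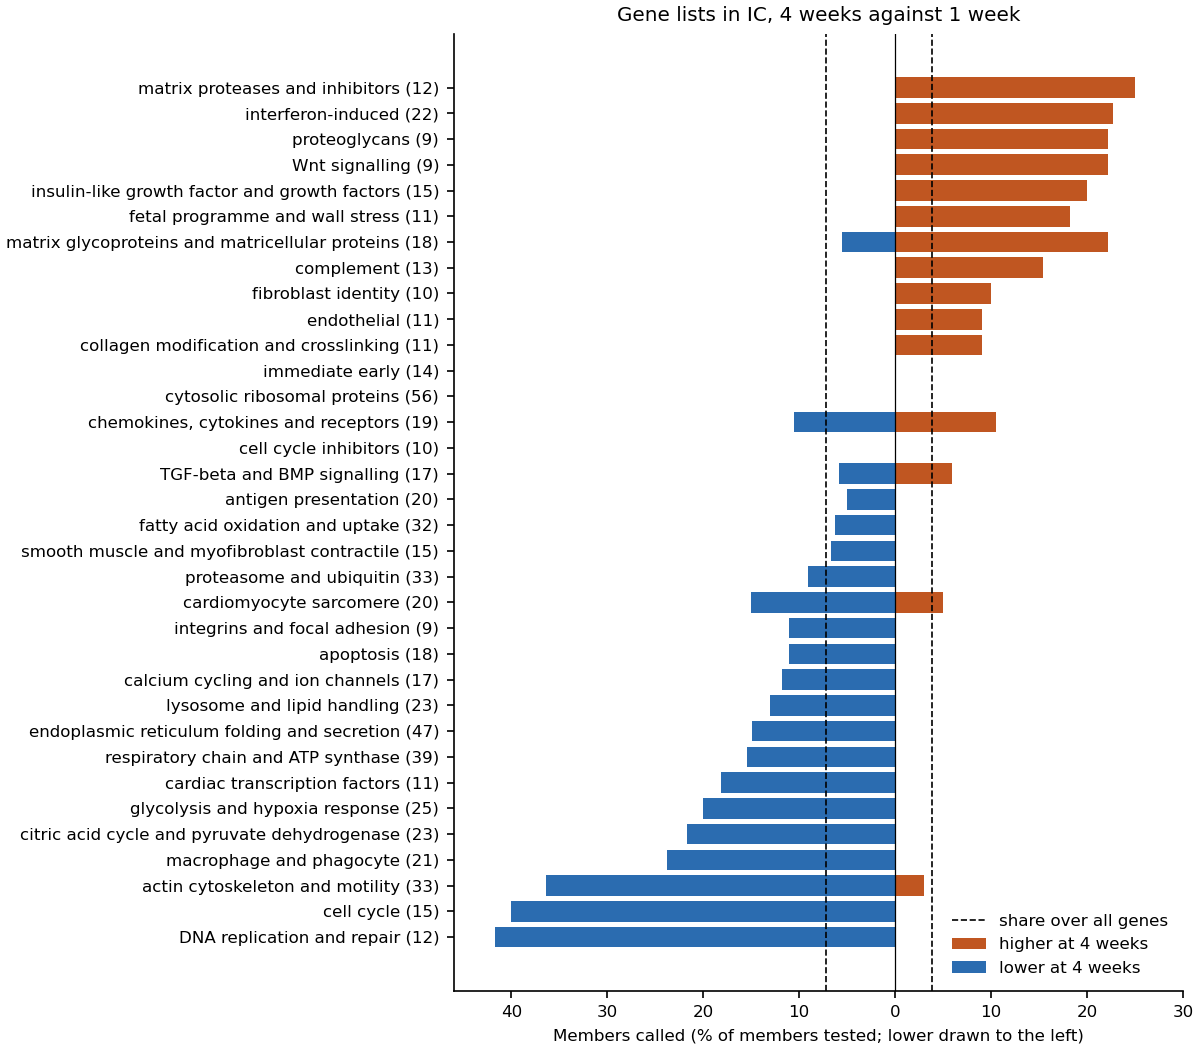
Share of the tested members of each list with at least 9 of them that were called higher (orange, to the right) or lower (blue, to the left) in IC at 4 weeks against 1 week, in %, with the number tested in brackets and the share over all 4977 genes as dashed lines (3.86% and 7.23%). DNA replication (41.7%), cell cycle (40.0%) and actin cytoskeleton (36.4%) lists had the largest shares lower, and matrix protease (25.0%) and interferon-induced (22.7%) lists the largest shares higher.

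Some genes of energy metabolism fell. Of 23 citric acid cycle genes 5 fell (21.7%, beside 7.23% of all genes) and none rose, with a median of -0.41. They were IDH2 (-0.78), SUCLG2 (-0.77), SUCLA2 (-0.74), IDH3A (-0.73, with a second probe set at 0.03 that did not pass) and MDH2 (-0.64). Of 39 respiratory chain and ATP synthase genes 6 fell (15.4%), with a median of -0.33. Among them were CYCS, the cytochrome c that carries electrons (-1.44), NDUFB5 (-0.88), NDUFC1 (-0.79) and UQCRB (-0.59). A second probe set of NDUFB5 did not pass (-0.24). The mean of the respiratory list was 9.30, 9.10 and 9.30 at 1 week and 9.03, 9.09 and 8.48 at 4 weeks, with pig 22 lowest and pigs 18 and 20 just below the 1-week range. Without pig 22 or pig 7 none of the respiratory genes was called, and without pig 9 none of the citric acid cycle genes. In other fits without 1 array up to 13 respiratory and up to 7 citric acid cycle genes were called lower. Of 25 glycolysis and hypoxia genes 5 fell (20.0%). PFKM, the muscle phosphofructokinase, had 8.47, 8.21 and 8.90 against 7.57, 7.35 and 6.80 (-1.29, adjusted p = 0.00307), and PGAM2, also of muscle, fell by 0.90, both called in every fit without 1 array. LDHA (-1.25), HMOX1 (-1.38) and TPI1 (-0.68) were not called without pig 9. Of 32 fatty acid genes ACSL4 (-0.56) and PPARD (-0.54) fell (6.25%, below the 7.23% of all genes), and a second probe set of PPARD did not pass (-0.04). The list means of the stages overlapped, with 7.03, 6.71 and 6.98 at 1 week and 6.96, 6.97 and 6.68 at 4 weeks.

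Of 20 sarcomere genes 3 fell, TNNT2 (-0.71), MYL3 (-0.59) and ACTC1 (-0.53), and 1 rose, MYOM2 (1.00), whose stages overlapped. None of the 4 was called without pig 22. TNNT2, the cardiac troponin T, had 11.84, 11.40 and 11.60 at 1 week and 11.40, 10.93 and 10.39 at 4 weeks, so that the stages met at 11.40. Of 17 calcium and ion channel genes GJA1, the connexin of cardiac gap junctions (-0.64), and ATP2A2, the calcium pump of the sarcoplasmic reticulum (-0.52), fell (11.8%). Neither was called without pig 22. A second probe set of GJA1 did not pass (-0.19, adjusted p = 0.655), while 2 further ones of ATP2A2 did (-0.65 and -1.06). Of 11 cardiac transcription factors HAND1 (-0.77) and the chromatin remodeller SMARCA4 fell (18.2%). The level of HAND1 was at most 3.30 in the 6 cores, where CM had 4.04 to 4.32.

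Of 47 endoplasmic reticulum genes 7 fell (14.9%, beside 7.23% of all genes), none rose and 39 had a negative log2 FC. The median was -0.26 in IC and -0.14 in RM. SEC61G, part of the channel that lets new proteins into the endoplasmic reticulum, had 9.35, 9.36 and 9.21 at 1 week and 8.40, 8.73 and 8.24 at 4 weeks (-0.85, adjusted p = 0.00118). CRELD2 (-0.91), SEC23A (-0.80), the disulfide isomerase PDIA4 (-0.76), SEC61B (-0.66), the chaperone CALR (-0.60) and SRP14 (-0.49) also fell. The count was 2 without pig 7, 9 or 22, and up to 10 in other fits without 1 array. Of 33 proteasome and ubiquitin genes PSMD12 (-0.90), UBE2N (-0.60) and PSMA1 (-0.56) fell (9.09%, near the 7.23% of all genes), and none of the 3 was called without pig 7 or 22. The stages overlapped for UBE2N and PSMA1. None of 56 ribosomal protein genes passed, and their median was 0.04.

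Few markers of resident cell types were called. FAP, the activation protein of fibroblasts, was the 1 of 10 fibroblast genes that rose, from 7.91, 8.30 and 7.92 to 9.24, 9.14 and 8.93 (1.06, adjusted p = 0.00523). CNN2, a calponin, was the 1 of 15 smooth muscle and myofibroblast genes called lower (-1.11, adjusted p = 0.00297), from 4.97, 4.74 and 4.76 to 3.74, 3.69 and 3.73. That share of 6.67% was near the 7.23% of all genes, and 5 of the 15 had a positive log2 FC. CD34 was the 1 of 11 endothelial genes called higher (9.09%), and 4 of the 11 had a negative log2 FC. Its change was 0.84 (adjusted p = 0.0137, and 0.0757 without pig 18). CD34 was highest in pigs 18 and 20 (7.12 and 6.82), not in pig 22 (6.19), whose endothelial mean was highest. S100B, a protein of Schwann cells, rose from 4.77, 5.24 and 5.01 to 6.60, 6.50 and 6.91 (1.66, adjusted p = 0.000639), the 1 of 4 nerve genes that passed. Of these 4 nerve genes 2 had a negative log2 FC. ALDH1A1 rose (1.22, adjusted p = 0.0109, and 0.0512 without pig 7), the 1 of 3 epicardial genes called. The other 2 had a negative log2 FC. Of 9 integrin and focal adhesion genes LIMS1 fell (-0.45), and of 18 apoptosis genes CYCS and BIRC6 (-0.45) did. Both shares were 11.1%, beside 7.23% of all genes. No gene passed of 14 immediate early, 7 adipocyte, 4 cartilage and bone and 3 blood genes.

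A set of 5 probe sets fell by over 4 on the log2 scale in IC, and all 5 were called lower in RM as well. The probe set matched to CLOCK, a gene of the circadian clock, had 5.95, 6.28 and 6.45 in the 1-week cores and 1.00, 0.62 and 0.77 in the 4-week cores (log2 FC -5.43, SE 0.57, adjusted p = 5.14e-05), and RM fell by 4.36 (adjusted p = 0.0032). LPHN2, an adhesion receptor, had 5.97, 5.82 and 5.69 against 1.36, 0.88 and 1.71 (-4.51, adjusted p = 0.000887), and RM fell by 4.06. The other 3 have no gene name, and fell by 7.11, 6.89 and 5.96 in IC and by 6.74, 6.99 and 5.44 in RM. All 5 were between 0.51 and 1.71 in the 6 arrays of the 4-week pigs, between 5.06 and 8.86 in the 6-week cores, and between 0.65 and 2.01 in CM of pig 30 against 4.93 to 7.65 in CM of pigs 31 and 33. At means near 1 the size of a log2 FC is not exact. BBS9, matched likewise, fell by 1.61 (adjusted p = 0.0126), with pig 22 (5.70) close to the lowest 1-week core (5.75), a call lost without pig 8 or 18 (adjusted p up to 0.0711).

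Whether the core changed differently from the rest of the heart was tested with the pig as a block, as the change of IC minus the change of RM of the same pigs. Only 8 of 12180 probe sets passed (0.0657%), 3 higher and 5 lower, while 1346 (11.1%) had an unadjusted p under 0.05. TOP2A had the largest fall relative to RM (log2 difference -2.91, adjusted p = 0.0376), with a change of 0.97 in RM (adjusted p = 0.284). PBK (-2.62, adjusted p = 0.0296), UBE2C (-2.27, adjusted p = 0.0491) and HIST1H2AK (-1.97, adjusted p = 0.0491) also fell relative to RM. Their RM changes did not pass, with 0.91 (adjusted p = 0.196), 0.75 (adjusted p = 0.328) and 0.31 (adjusted p = 0.712), and for HIST1H2AK the RM level of pig 18 (4.79) lay below the 1-week RM arrays (5.00 to 5.47). TOP2A, PBK, UBE2C and HIST1H2AK are genes of dividing cells. The 1-week RM levels of TOP2A (2.27 to 2.60), PBK (1.85 to 2.38) and UBE2C (2.60 to 3.12) were low, where sizes are not exact. PLIN2, the coat protein of lipid droplets, was called (-2.37, adjusted p = 0.0296), and RM rose by 2.05 while IC changed by -0.32. ADAMTS3, a protease that trims procollagen, was called (2.90, adjusted p = 0.0285), and RM fell by 2.19 while IC changed by 0.72. The RM levels of PLIN2 at 1 week (2.54 to 3.12) and of ADAMTS3 at 4 weeks (2.13 to 2.98) were also low. Another probe set has no gene name and rose relative to RM by 1.47 (adjusted p = 0.0491), with 2.06, 2.15 and 2.04 in the 1-week cores and 4.02, 3.40 and 4.79 in the 4-week cores. The count was 0 without pig 7, 9 or 20, 2 without pig 8, 3 without pig 18 and 23 without pig 22.

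**Figure D5:**
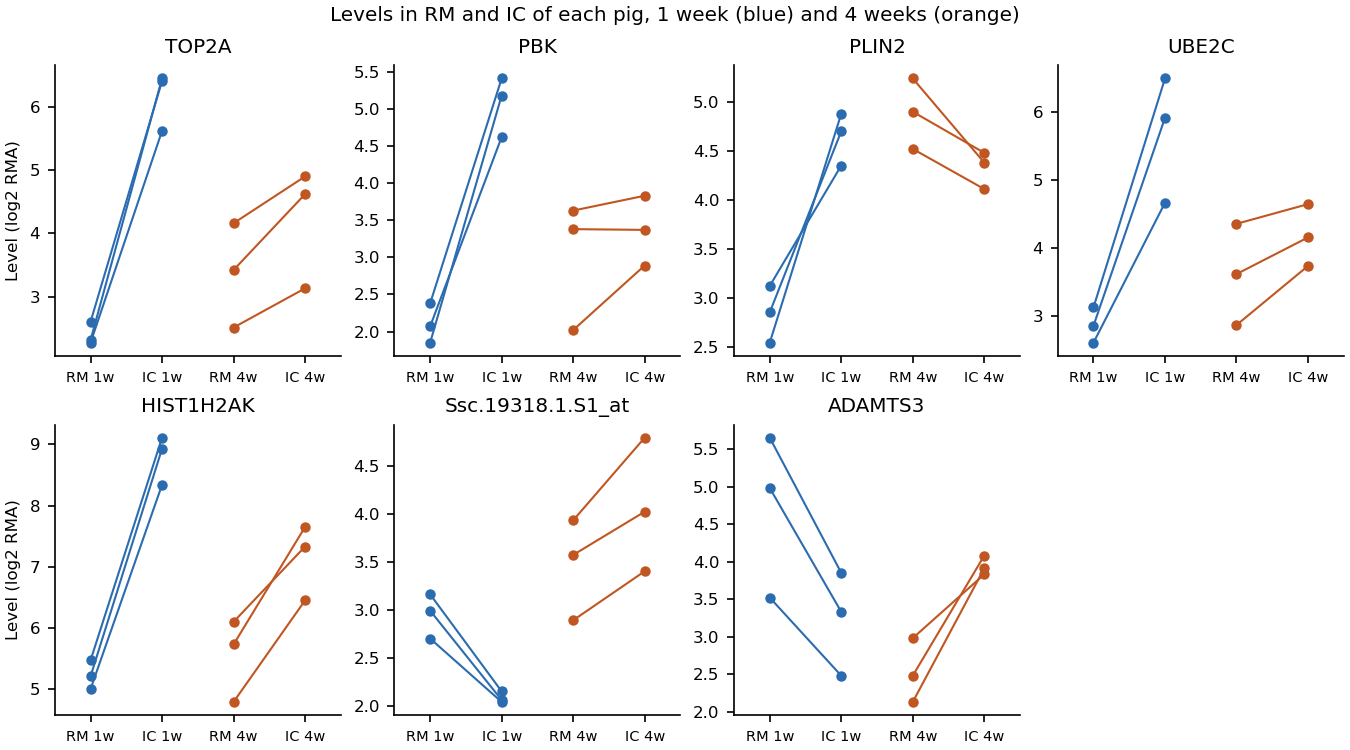
Level (log2 RMA, y axis) of 7 of the 8 probe sets called for the change of IC relative to RM, in RM and IC of each pig, with a line joining the samples of 1 pig (blue, pigs 7, 8 and 9 at 1 week; orange, pigs 18, 20 and 22 at 4 weeks). TOP2A, PBK, UBE2C and HIST1H2AK rose steeply from RM to IC at 1 week and less at 4 weeks, while PLIN2 and ADAMTS3 turned from one direction to the other.

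Of 25 genes that the study followed over time, 3 fell in the core between 1 and 4 weeks and none rose when each was read by its brightest probe set, beside 7.23% of all genes that fell. The study chose these genes on the same samples. SMARCA4, the motor of a chromatin remodelling complex, had 7.17, 7.31 and 7.41 at 1 week and 6.57, 6.61 and 6.52 at 4 weeks (log2 FC -0.73, SE 0.11, adjusted p = 0.00103), with 0.01 in RM. The test of the difference between IC and RM did not pass for SMARCA4 (-0.74, adjusted p = 0.145). PPARD, a nuclear receptor of fatty acids, had 4.71, 4.72 and 4.82 against 4.20, 4.24 and 4.20 (-0.54, adjusted p = 0.00534), and also fell in RM (-0.46, adjusted p = 0.0441). The 1-week levels lay above the CM range of 4.28 to 4.35 and the 4-week levels below it. The paper, in contrast, describes PPARD as lowered in the core at every stage sampled. A second probe set of PPARD did not pass (-0.04, adjusted p = 0.875), so the fall of this gene rests on the brighter probe set. HMGA1, an architectural chromatin protein, had 4.65, 4.57 and 5.05 against 3.95, 4.00 and 3.80 (-0.84, adjusted p = 0.00794, and 0.0549 without pig 9). The next nearest were FZD4, a Wnt receptor (0.86, adjusted p = 0.0542), whose second probe set rose by 1.27 (adjusted p = 0.00118), HIF1A, the hypoxia factor (-0.52, adjusted p = 0.0653), and CEBPB (-0.60, adjusted p = 0.0748). Signalling genes of the group had log2 FC of 0.47 (TGFB3), 0.37 (NFKBIA), 0.31 (BMPR1A), 0.06 (SMAD1), -0.09 (SMAD3), -0.15 (TNFRSF1A) and -0.43 (BID), each with overlapping stages. KLF11 had a log2 FC of 1.39 (adjusted p = 0.136) at levels of 2.02 to 4.00, where sizes are not exact, and its second probe set rose by 1.47 (adjusted p = 0.0363). SATB1 had -0.50 (adjusted p = 0.0926), and its further probe sets had -0.48 (adjusted p = 0.0633) and -1.25 (adjusted p = 0.00273).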

How the data were processed

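RNA from 21 myocardial samples was hybridised to Affymetrix porcine arrays, 1 array per sample. The authors background-corrected, quantile-normalised and summarised the probes by RMA, and the deposited values are log2 levels of 24123 probe sets. No pseudocount was added. The 12180 probe sets that exceeded 3 on 10 or more arrays were tested. A linear model with 7 group means over 21 arrays was fitted in limma 3.58.1 (R 4.3.3), with Benjamini-Hochberg adjustment over all probe sets. The change of IC relative to RM was fitted over 18 arrays with the pig as a block. Same-numbered IC and RM arrays come from 1 pig, and their deviations correlated at 0.0714 to 0.491 (9 pigs). An exact permutation test of 3 against 3 arrays cannot give a p below 0.1. Each stage is 3 arrays, and this number limits the precision.

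Genes carry the platform's symbol (6257 probe sets tested) or, failing that, the authors' match to a human gene (1055), and 4868 have no name. CHRDL1, ELN, NOV, ABI3BP, CLOCK, LPHN2, SASH3, IL2RB, PBK, HIST1H2AK, BBS9 and ADAMTS3 are named by the authors' match. A gene with several probe sets was represented by that with the highest mean over all arrays. The genes named were the 15 largest rises and falls with a mean of at least 5 in the higher stage and no overlap of the stages, up to 5 called members of each list, genes the study followed, and calls relative to RM. Further list members (ACTR2, ACTR3, ARPC4, ARPC5, CFL1, TUBB, FSCN1, MAD2L1, CALR, SRP14, COL3A1, COL5A1, COL5A3) were named after their values were seen. Members and lists were chosen with earlier results of these data known. One gene that the rule chose is not reported here. The fits were also run on simulated data with independent noise in each array. Those data held no pig effect and no difference in labelling, so they cannot check the calls for either. The authors' columns of comparisons were not used.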

Additional observations from a re-analysis of the deposited data

Results flagged for a closer look

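For 8 probe sets, 7 of them given here, the change between 1 and 4 weeks differed between IC and RM of the same pigs, by the test of that difference with the pig as a block (limma). The log2 difference was -2.91 for TOP2A, -2.62 for PBK, -2.37 for PLIN2, -2.27 for UBE2C and -1.97 for HIST1H2AK. It was 1.47 for a probe set with no gene name and 2.90 for ADAMTS3. In RM, PLIN2 had 2.85, 3.12 and 2.54 in pigs 7, 8 and 9 and 4.52, 4.90 and 5.24 in pigs 18, 20 and 22, and ADAMTS3 had 3.52, 5.65 and 4.98 against 2.98, 2.13 and 2.48. At levels near or below 3 the size of a change is not exact.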

How the results depend on the processing

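The count of 1452 DEPS (679 higher, 773 lower) became 1703 (430 and 1273) with arrays centred on ribosomal protein genes, 3509 (1545 and 1964) with array weights, 424 (248 and 176) with the 6 IC arrays alone and 567 (316 and 251) with the 9 IC arrays alone. It was 440 (250 and 190) at an adjusted p under 0.01 and 427 (276 and 151) at an absolute log2 FC of at least 1. Leaving out 1 array gave 538 to 1481 (294 to 636 higher, 244 to 845 lower). With covariates chosen after seeing the data it was 45 (34 and 11) for the poly-A control level, with 1718 at an unadjusted p under 0.05, and 0 (0 and 0) for the 5′ minus 3′ signal, with 1252. With the pig as a random replicate block it was 1467 (692 and 775).

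The count of 8 changes relative to RM (3 higher, 5 lower) became 83 (30 and 53) without the filter on low values, 5 (1 and 4) with ribosomal centring, 4 (1 and 3) with cyclic loess, 97 (47 and 50) with array weights, 3 (1 and 2) with 12 arrays and the replicate block, 0 at an adjusted p under 0.01 and 0 with no replicate block, where 1022 had an unadjusted p under 0.05. Leaving out 1 array gave 0 to 23 (0 to 12 higher, 0 to 11 lower). The causes of these shifts were not tested.

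Of the called genes, PDIA4 turned to 0.00 with the 5′ covariate. The other reversals were in genes that did not pass. With the 5′ covariate the log2 FC was 0.38 for LMNA, -0.48 for NFKBIA, -0.19 for SMAD1, -0.74 for EPAS1, 0.06 for IRF3 and -0.89 for KLF11. With the poly-A covariate it was -0.51 for NFKBIA, -0.06 for TGFB3, 0.15 for TNFRSF1A, -0.47 for JUN, 0.16 for MBD2, -0.71 for PPARGC1A and 0.20 for SMAD3. With array weights it was 0.06 for LMNA, -0.23 for SMAD1 and 0.13 for ROCK1, and with ribosomal centring -0.07 for SMAD1 and -0.02 for EPAS1. Without pig 22 it was 0.11 for LMNA, -0.21 for SMAD1 and 0.01 for SMAD3, without pig 20 0.10 for ROCK1, without pig 8 -0.12 for EPAS1, without pig 18 -0.03 for PPARGC1A and without pig 9 0.02 for SMAD3. Over the fits without 1 array these log2 FC ranged from -0.21 to 0.25 (SMAD1), -0.38 to 0.10 (ROCK1), -0.12 to 0.31 (EPAS1), -0.03 to 0.52 (PPARGC1A) and -0.29 to 0.02 (SMAD3). In 95 DEPS a stage mean was below 3, where the size of a change is not exact.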
